A study of Mus musculus with 2 samples.

Results

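The CCN matricellular genes and the genes of YAP/TAZ signaling that act with them were examined in muscle layers of mouse jejunum (tunica muscularis) that had been separated from the mucosa. The 10 genes were taken by symbol from the 18159 genes of the deposited mRNA table, and all 10 were found. They comprise the secreted CCN proteins *Ctgf* (*Ccn2*), *Cyr61* (*Ccn1*), *Nov* (*Ccn3*), *Wisp1* (*Ccn4*) and *Wisp2* (*Ccn5*), the YAP target genes *Ankrd1* and *Amotl2*, the transcriptional coactivators *Yap1* and *Wwtr1* (which encodes TAZ), and the DNA-binding partner *Tead1*.

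The mice had a C57BL/6 background and were 15 days old. In *Dnmt1*-KO mice, the loxP-flanked part of *Dnmt1* is removed by a Cre recombinase that is expressed together with eGFP from the *Myh11* promoter, so that deletion is directed to smooth muscle cells (SMCs) while the muscle wall also holds other cells. *Dnmt1*-WT mice carry the same Cre-eGFP transgene. The strain label names the transgene and *Dnmt1*lox/lox for both samples, and the description field of both gives a *Dnmt1*-/- genotype; groups were assigned by the genotype label. Each genotype is represented by 1 library, prepared from mice of both sexes, and the sources do not state how the RNA of individual mice was combined. Without replicates there is no test, and none of the differences below could be set against a spread between mice. Values are FPKM, fragment numbers per transcript length and per mapped fragments of a library, which is a level per length and allows genes to be compared. Ratios are *Dnmt1*-KO to *Dnmt1*-WT and were formed from FPKM + 0.1 unless stated otherwise. The deposited table holds no read counts, and no counting interval is given. *Dnmt1* was listed at 11.58 FPKM in *Dnmt1*-WT and 7.58 FPKM in *Dnmt1*-KO. All 10 smooth muscle markers examined were present in both libraries, at 165.93 FPKM or more in *Dnmt1*-WT and 80.43 FPKM or more in *Dnmt1*-KO.

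CCN proteins are secreted into the extracellular matrix, where they bind integrins, proteoglycans and growth factors and modulate adhesion, migration and matrix production. YAP and TAZ are held in the cytoplasm when the kinases of the Hippo pathway phosphorylate them. On stiff matrix or with high actin tension they enter the nucleus, bind TEAD factors and activate target genes, of which *Ctgf*, *Cyr61* and *Ankrd1* are the best known. In visceral and vascular smooth muscle, YAP is linked to proliferation and to the less contractile state of SMCs.

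The upstream DNA of these genes was searched for the letters that TEAD factors recognize. These are the letters GGAATG, or CATTCC on the other strand. Upstream sequence from RefSeq (GRCm38.p6) was matched for 5 of the 10 genes, *Cyr61*, *Ankrd1*, *Amotl2*, *Yap1* and *Wwtr1*, but not for *Ctgf*, *Nov*, *Wisp1*, *Wisp2* and *Tead1*. The 250 bases before the transcript start are shown 5′ to 3′ on the strand of the gene, because matches occur there in 3 target genes and in both coactivators. The starts are those of RefSeq. For *Ankrd1* and *Amotl2* the window lies inside the gene span that GENCODE gives, whose outermost start is further upstream. Capitals mark each match on either strand.
*Cyr61*, minus strand of chr3:145649986-145650235: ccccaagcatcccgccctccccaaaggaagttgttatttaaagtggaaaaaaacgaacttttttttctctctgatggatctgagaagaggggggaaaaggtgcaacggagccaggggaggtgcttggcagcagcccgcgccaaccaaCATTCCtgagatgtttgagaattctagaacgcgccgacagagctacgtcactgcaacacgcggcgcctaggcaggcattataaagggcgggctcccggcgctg
*Ankrd1*, minus strand of chr19:36119845-36120094: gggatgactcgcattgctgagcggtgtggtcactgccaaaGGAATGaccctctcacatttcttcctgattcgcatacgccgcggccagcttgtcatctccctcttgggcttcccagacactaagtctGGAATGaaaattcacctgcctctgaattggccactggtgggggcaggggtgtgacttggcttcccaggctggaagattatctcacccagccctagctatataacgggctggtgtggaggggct
*Amotl2*, plus strand of chr9:102717554-102717803: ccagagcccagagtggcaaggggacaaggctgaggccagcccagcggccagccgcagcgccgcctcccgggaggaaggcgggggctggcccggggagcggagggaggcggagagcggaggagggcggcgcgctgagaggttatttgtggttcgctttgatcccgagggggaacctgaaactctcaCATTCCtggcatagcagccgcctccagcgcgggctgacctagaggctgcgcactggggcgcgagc
*Yap1*, minus strand of chr9:8004597-8004846: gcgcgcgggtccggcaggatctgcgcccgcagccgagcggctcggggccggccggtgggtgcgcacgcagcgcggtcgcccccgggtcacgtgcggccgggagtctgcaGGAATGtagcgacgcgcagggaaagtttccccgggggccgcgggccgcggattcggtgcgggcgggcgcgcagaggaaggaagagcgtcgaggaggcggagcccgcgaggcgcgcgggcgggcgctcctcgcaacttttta
*Wwtr1*, minus strand of chr3:57575911-57576160: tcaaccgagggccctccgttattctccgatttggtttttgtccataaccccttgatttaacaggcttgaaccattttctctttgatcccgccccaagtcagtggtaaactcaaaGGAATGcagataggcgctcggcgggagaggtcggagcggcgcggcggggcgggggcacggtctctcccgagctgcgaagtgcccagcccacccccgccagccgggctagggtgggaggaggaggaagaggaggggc

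All 5 genes carried the motif, *Ankrd1* at 2 positions and each of the others at 1. *Wwtr1* has a second, overlapping start in RefSeq, and the same match lies in both windows. Of 32817 upstream windows of this length in RefSeq, 12.6% held at least 1 match and 1.02% held 2 or more. Since the windows above are shown for their matches, these shares are a description and no enrichment is read from them. In *Cyr61* the match began 103 bases before the start, in *Amotl2* 65 bases, and in *Ankrd1* 210 and 123 bases. In *Yap1* and *Wwtr1*, whose transcripts differed between the libraries in the opposite direction, it began 141 and 136 bases before the start. The letters were thus present upstream of genes that were higher in *Dnmt1*-KO and of genes that were lower. No CArG box, the site bound by SRF, was found in any of these windows, against 1.47% of all windows. *Wisp3*, the remaining CCN gene, had neither. A match is a description of the sequence and does not show that a factor binds there.

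**Figure D1:**
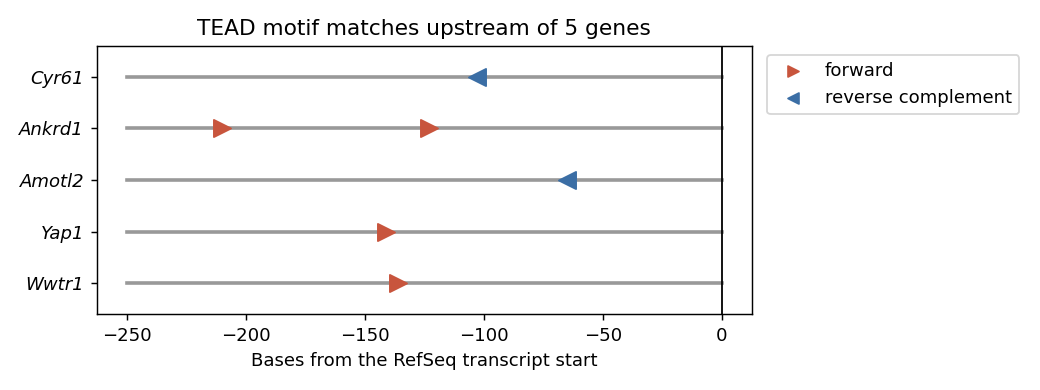
Position of each TEAD motif match in the 250 bases before the RefSeq transcript start, in bases from the start, for 5 genes. Right-pointing marks are forward matches and left-pointing marks are matches of the reverse complement, placed at the first base; *Ankrd1* has 2 marks, at 210 and 123 bases before the start, and each other gene has 1.

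CpG sites, the substrate of DNMT1, differed widely in number between these windows. *Yap1* had 44 CG dinucleotides in 250 bases, more than 99.5% of all windows. *Amotl2* had 21, *Wwtr1* 18 and *Cyr61* 15. *Ankrd1* had the fewest, 7, near the median of 6.0 over all windows. Methylation at these positions was not analysed here.

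Among the 10 genes, the CCN ligands and target genes were higher in *Dnmt1*-KO, whereas the coactivators and *Tead1* were lower. *Ctgf*, *Cyr61*, *Nov* and *Wisp2* had a ratio of 2 or more, and *Ankrd1* was listed at 0 in *Dnmt1*-WT and detected in *Dnmt1*-KO, so that 5 of 10 genes were past this fold in the upward direction. Over all 17585 genes above 0 in either library, 12.4% were past it. None of the 10 had a ratio of 0.5 or less, against 4.82% of all genes. At 5 FPKM or more in at least 1 library, 6.08% of 9902 genes were past the fold upward and 2.95% downward. This filter removes *Wisp2*, and *Nov* and *Ankrd1* pass it only through *Dnmt1*-KO, the library in which they are high, so no count of the members is read against these shares. At 1 FPKM or more in both libraries, 2 of the 5 genes past the fold remained, *Ctgf* and *Cyr61*. The median log2 ratio of the 10 genes was 1.23 and that of all genes 0.02. The median of the 10 genes lies between *Amotl2* (0.54) and *Ctgf* (1.92). Without *Ankrd1* it was 0.54, and leaving out any other of the 5 genes past the fold gives the same value.

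**Figure D2:**
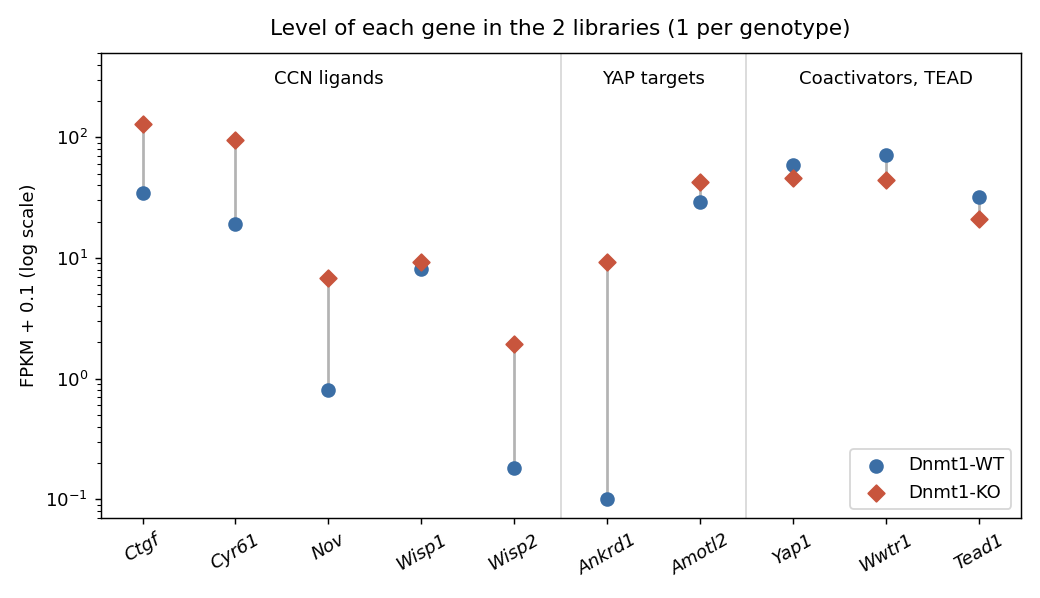
FPKM + 0.1 on a log axis for the 10 genes in the *Dnmt1*-WT library (circles) and the *Dnmt1*-KO library (diamonds), 1 library each, so no error bars are drawn. *Ctgf* and *Cyr61* pass above *Yap1* and *Wwtr1* in *Dnmt1*-KO, while *Yap1*, *Wwtr1* and *Tead1* are lower there.

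*Ctgf* encodes connective tissue growth factor, a mediator of fibrosis that is induced by TGF-β and by YAP. It lies on the plus strand of chromosome 10 of GRCm38, from 24595442 to 24598683. Its level was 34.24 FPKM in *Dnmt1*-WT and 129.64 FPKM in *Dnmt1*-KO. It was the highest of the 10 genes in *Dnmt1*-KO and the third in *Dnmt1*-WT, with a difference of 95.4 FPKM and a ratio of 3.78. Among all genes it moved from rank 2147 to rank 518 by FPKM. A noncoding transcript on the opposite strand, *Gm15270*, overlaps *Ctgf* over 197 bases of identical transcript sequence. It is not listed in the table, and the sources do not state that the counting used strand.

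*Cyr61*, an angiogenic ligand of integrins that is expressed rapidly after serum stimulation, lies on the minus strand of chromosome 3 from 145646976 to 145649981. It was listed at 18.97 FPKM in *Dnmt1*-WT and 94.41 FPKM in *Dnmt1*-KO. The ratio of 4.96 was larger than that of *Ctgf*, and the rank among all genes moved from 3895 to 725. *Cyr61* stood below *Amotl2* and *Tead1* in *Dnmt1*-WT and above all members other than *Ctgf* in *Dnmt1*-KO. Within a library, *Ctgf* was 1.8 times *Cyr61* in *Dnmt1*-WT and 1.37 times in *Dnmt1*-KO, so both ligands kept the same order.

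The other CCN ligands were expressed at lower levels. *Nov*, a CCN protein that in several cell types restrains proliferation, lies on chromosome 15 from 54745702 to 54754039 and went from 0.7 to 6.67 FPKM, a ratio of 8.46. *Wisp2*, whose protein lacks the C-terminal cysteine knot of the other CCN proteins, lies on chromosome 2 from 163820861 to 163833146 and was at 0.08 FPKM in *Dnmt1*-WT and 1.85 FPKM in *Dnmt1*-KO. Its ratio of 10.8 rests on a *Dnmt1*-WT value close to 0.03 FPKM, the lowest above 0 in either library, and its log2 ratio lay between 1.4 and 4.53 depending on the pseudocount. *Wisp1*, a target of WNT signaling on chromosome 15 from 66891320 to 66923201, showed little difference, with 7.94 FPKM in *Dnmt1*-WT and 9.21 FPKM in *Dnmt1*-KO, a ratio of 1.16. *Wisp3* was listed at 0.04 FPKM and at 0. The family was thus not uniform, with 4 of its 6 genes past a ratio of 2 and *Wisp1*, which shares chromosome 15 with *Nov*, near 1. Over all genes above 0 in either library, 12.4% had a ratio of 2 or more. At 1 FPKM or more in both libraries, 2 CCN genes past this ratio remained, *Ctgf* and *Cyr61*.

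Summed over the 6 CCN genes, the family amounted to 61.97 FPKM in *Dnmt1*-WT and 241.78 FPKM in *Dnmt1*-KO, 3.9 times as much. *Ctgf* and *Cyr61* made up 85.9% of this sum in *Dnmt1*-WT and 92.7% in *Dnmt1*-KO. The share of *Wisp1* was 12.8% and 3.81%. *Ctgf* and *Cyr61* thus supplied most of the CCN transcript in both libraries, and *Nov* and *Wisp2* little of it despite their large ratios. All 5 CCN member genes have at most 5 exons in the GENCODE annotation, and none shared a stretch of 100 bases at 95% identity with the transcript of another gene except *Ctgf* with *Gm15270*.

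*Ankrd1* encodes an ankyrin repeat protein of striated muscle that is also a direct YAP target in many cells. The gene lies on the minus strand of chromosome 19 from 36111961 to 36120099. It was listed at 0 FPKM with 0 transcript variants in *Dnmt1*-WT and at 9.18 FPKM with 1 variant in *Dnmt1*-KO. Of the 1527 genes listed at 0 in *Dnmt1*-WT, 8 reached this level or more in *Dnmt1*-KO, *Ankrd1* included. No fold is given against a value listed at 0. Because *Ankrd1* is abundant in striated muscle, genes of that tissue were examined beside it. Of 12 striated muscle markers listed, 8 were higher and 4 lower in *Dnmt1*-KO. A ratio of 2 or more was found for 7 and a ratio of 0.5 or less for 3. The shares over all genes above 0 in either library were 12.4% and 4.82%. The sum of the 12 markers was 139.47 FPKM in *Dnmt1*-WT and 117.57 FPKM in *Dnmt1*-KO. *Ckm* alone fell by more than this sum did. *Tnnc2*, fast skeletal troponin C, went from 0.51 to 13.46 FPKM, whereas *Ckm*, muscle creatine kinase, went from 96.73 to 41.41 FPKM. Further markers of the list were singled out after their values were seen. *Acta1* was at 5.17 and 12.22 FPKM, *Tnnt3* at 2.35 and 8.57 FPKM and *Actn2* at 2.36 and 5.43 FPKM. *Myl1* was at 30.66 and 33.44 FPKM, and all of these markers were higher in *Dnmt1*-KO. The myosin heavy chain genes *Myh1*, *Myh2*, *Myh3* and *Myh8* were below 1 FPKM in both libraries. Of these, *Myh2* was higher and *Myh1*, *Myh3* and *Myh8* were lower in *Dnmt1*-KO. The part of striated muscle in the *Ankrd1* value was not tested.

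*Amotl2*, which encodes an angiomotin that binds YAP and retains it outside the nucleus and is itself a YAP target, was higher by a smaller margin. It lies on chromosome 9 from 102716672 to 102733418, with 29.17 FPKM in *Dnmt1*-WT and 42.46 FPKM in *Dnmt1*-KO, a ratio of 1.45. This ratio was above that of 86.4% of the genes at 5 FPKM or more. *Amotl2* did not pass a ratio of 2.

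The coactivators and *Tead1* were the most abundant of the 10 genes in *Dnmt1*-WT together with *Ctgf*, and all 3 were lower in *Dnmt1*-KO without reaching a ratio of 0.5. *Yap1*, on the minus strand of chromosome 9 from 7931999 to 8004596, was at 58.86 FPKM in *Dnmt1*-WT and 46.25 FPKM in *Dnmt1*-KO, a ratio of 0.786. *Wwtr1*, on the minus strand of chromosome 3 from 57455649 to 57575910, was at 71.89 and 43.91 FPKM, a ratio of 0.611. *Tead1*, on chromosome 7 from 112679318 to 112906807, was at 31.67 and 20.91 FPKM, a ratio of 0.661. Transcripts on the opposite strand overlap all 3 genes (*Gm20416*, *Gm16016* and *2310014F06Rik*) and are not listed in the table, and the *Yap1* transcript shares a stretch of 147 bases at 95.2% identity with *Gm49308*, the closer of 2 genes found. The order of the coactivators differed between the libraries, since *Wwtr1* exceeded *Yap1* in *Dnmt1*-WT and *Yap1* exceeded *Wwtr1* by a small margin in *Dnmt1*-KO. Among genes at 5 FPKM or more, 6.6% had a lower ratio than *Wwtr1*, 9.59% a lower ratio than *Tead1* and 22.5% a lower ratio than *Yap1*. Smooth muscle markers were lower in the same library, as all 10 of 10 had a ratio below 1, with a range from 0.428 to 0.893. Over all genes at 5 FPKM or more in at least 1 library, 47.0% were higher in *Dnmt1*-KO. The sum of the 10 smooth muscle markers went from 25114.02 to 17024.89 FPKM, a ratio of 0.678. The ratios of *Wwtr1*, *Tead1* and *Yap1* lie within the range of these markers. In RNA of a whole tissue, fewer cells of a type and less RNA per cell cannot be told apart.

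**Figure D3:**
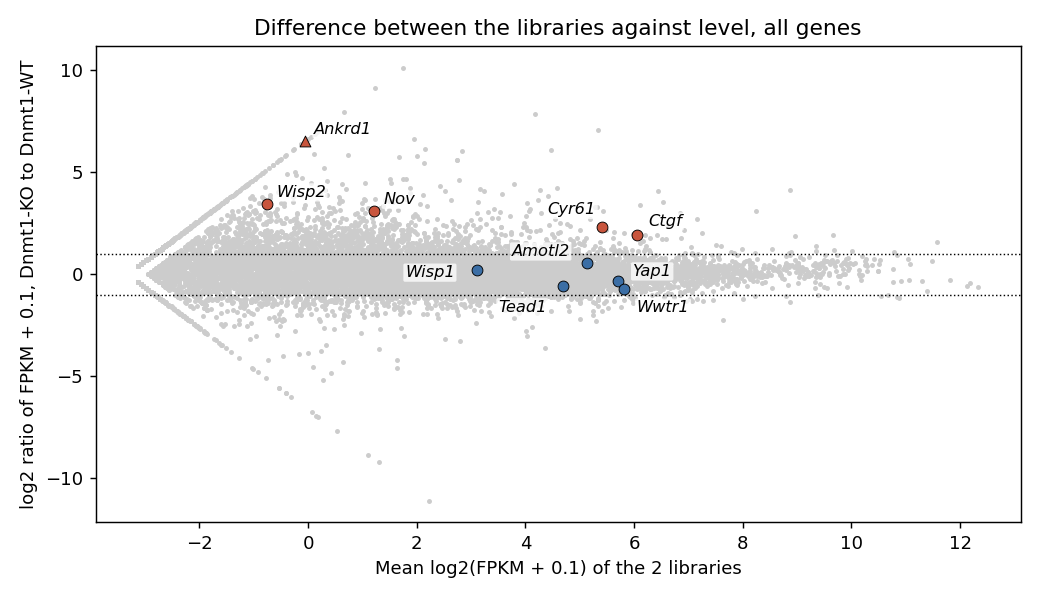
Log2 ratio of FPKM + 0.1 (*Dnmt1*-KO to *Dnmt1*-WT) against the mean log2(FPKM + 0.1) of the 2 libraries, for all genes above 0 in either (grey) and the 10 genes (red at a ratio of 2 or more, blue otherwise). Dotted lines mark ratios of 2 and 0.5; the triangle is *Ankrd1*, listed at 0 in *Dnmt1*-WT, whose height depends on the added 0.1.

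The relation of targets to coactivators was also expressed as ratios within each library, which do not depend on how the libraries were scaled. *Ctgf* was 0.582 times *Yap1* in *Dnmt1*-WT and 2.8 times in *Dnmt1*-KO. Against *Wwtr1*, *Cyr61* was at 0.264 times in *Dnmt1*-WT and 2.15 times in *Dnmt1*-KO. *Ctgf* and *Cyr61* together were 0.407 times the sum of *Yap1* and *Wwtr1* in *Dnmt1*-WT and 2.49 times in *Dnmt1*-KO. The coactivator transcripts therefore exceeded both ligands in *Dnmt1*-WT, and the ligands exceeded the coactivators in *Dnmt1*-KO. For *Amotl2* against *Yap1*, the change was smaller, from 0.496 to 0.918 times. Activity of YAP and TAZ depends on their phosphorylation and location, which mRNA levels do not measure.

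The more abundant of the other DNA-binding partners were also lower, without reaching a ratio of 0.5. TEAD factors bind DNA and recruit YAP or TAZ, and VGLL proteins compete for the same surface. *Tead3*, named after its value was seen as the most abundant of the family, went from 42.46 to 30.14 FPKM, and *Tead2* from 20.37 to 15.91 FPKM. *Tead4* was at 1.1 and 1.52 FPKM. The sum of the 4 TEAD genes was 95.6 FPKM in *Dnmt1*-WT and 68.48 FPKM in *Dnmt1*-KO, and *Tead3* contributed 44.4% and 44.0% of it. *Vgll4*, a repressor of TEAD, went from 13.39 to 9.41 FPKM. Of the 5 listed genes of this group (TEAD and VGLL genes other than *Tead1*), 2 were higher and 3 lower, 0 passed a ratio of 2 in either direction, and their median log2 ratio was -0.35. The genes that were higher were *Tead4* and *Vgll3*, the latter at 3.05 and 4.79 FPKM, both named after their values were seen.

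Regulators of YAP and TAZ in the Hippo pathway and at cell junctions were more often lower than higher in *Dnmt1*-KO, mostly without reaching a ratio of 0.5. Of 17 Hippo kinases and adaptors, which phosphorylate the coactivators or carry signals to the kinases, 13 were lower and 4 higher, 0 had a ratio of 2 or more and 2 had a ratio of 0.5 or less, against 2.95% of all genes at 5 FPKM or more. Their median log2 ratio was -0.12, and -0.01 after centring on transcript length. Over all genes at 5 FPKM or more, 47.0% were higher in *Dnmt1*-KO. After centring on transcript length or GC content, 1 of the 17 had a ratio of 0.5 or less. *Mob1b*, an activator of the LATS kinases, went from 20.17 to 8.51 FPKM, a ratio of 0.425. *Fat4*, an atypical cadherin, went from 13.33 to 5.43 FPKM, a ratio of 0.412. All 17 genes were at 5 FPKM or more in at least 1 library. Scaffolds of cell junctions that bind YAP, TAZ or LATS numbered 8, of which 6 were lower and 2 higher, and 0 passed the fold in either direction. Some of them, such as the LIM proteins that hold LATS, act in favor of YAP and not against it. Their median log2 ratio was -0.45, and they ranged from a ratio of 0.652 for *Tjp1*, the tight junction protein ZO-1, to 1.39 for the LIM protein gene *Ajuba*.

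The other targets of YAP and TAZ were evenly divided by sign, but their count past a fold depended on the threshold. Of 18 further target genes, taken from general knowledge, all were listed, and 9 were higher and 9 lower in *Dnmt1*-KO. Only 1 had a ratio of 2 or more, *Nuak2*, a kinase gene at 0.48 and 1.59 FPKM that falls outside the rule for named genes and was chosen after its value was seen. Only 1 had a ratio of 0.5 or less, *Foxf2*, a transcription factor of gut mesenchyme, which went from 29.22 to 6.46 FPKM, a ratio of 0.224. A ratio of 2 or more was found for 12.4% of all genes above 0 in either library, and a ratio of 0.5 or less for 4.82%. At a fold of 1.5, 6 of the 18 genes were past it upward and 2 downward. Over all genes above 0 in either library, 21.3% were past this fold upward and 12.9% downward, and at 5 FPKM or more in at least 1 library the shares were 12.3% and 10.1%. The upward count at a fold of 2 was 2 under median centring and 0 with a pseudocount of 1. Over the 18 genes, log2 ratios had a median of -0.05, against 0.02 for all genes, and the sums were 370.68 and 374.18 FPKM. Of the 4 target genes among the 10 members, all were higher in *Dnmt1*-KO and 3 passed a ratio of 2. Since the members were put together with results of these data known, the contrast between the 2 sets is a description.

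**Figure D4:**
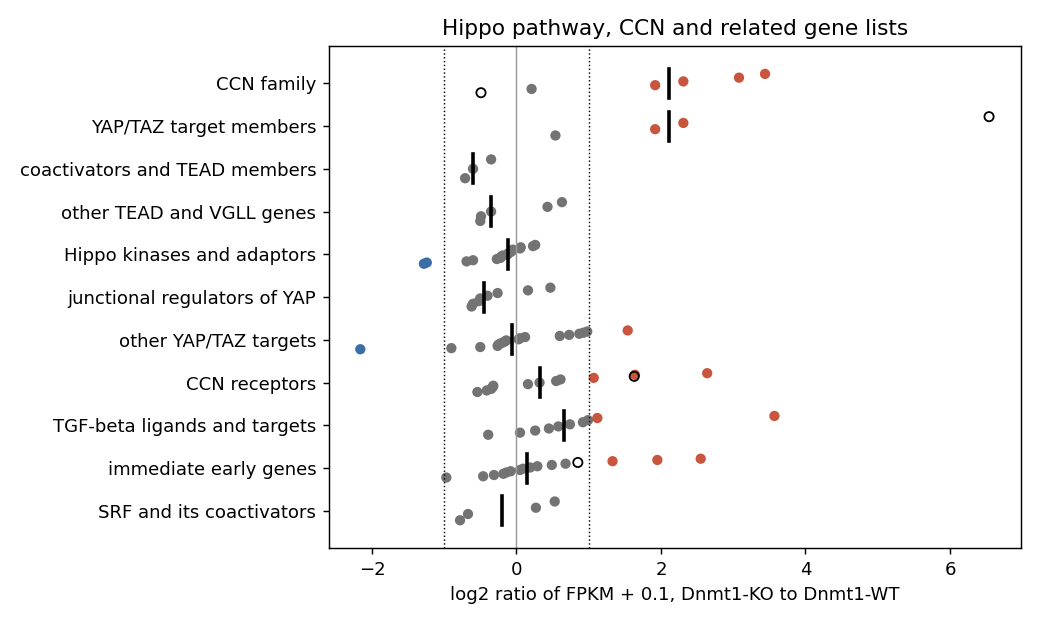
Log2 ratio of FPKM + 0.1 (*Dnmt1*-KO to *Dnmt1*-WT) of each gene of 11 lists, with the median as a black bar and dotted lines at ratios of 2 and 0.5. Red points passed the fold upward, blue points downward and grey points neither, and open circles are genes listed at 0 in 1 library; the CCN family lies mostly beyond 1, while the other YAP/TAZ targets center near 0.

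Receptors through which CCN proteins act include integrins, the endocytic receptor LRP1 and syndecan-4. Of 13 such genes, 8 were higher and 5 lower in *Dnmt1*-KO, with a median log2 ratio of 0.32. A ratio of 2 or more was found for 4 and a ratio of 0.5 or less for 0. Of all genes above 0 in either library, 51.5% were higher, 12.4% had a ratio of 2 or more and 4.82% a ratio of 0.5 or less. *Itga5*, the fibronectin receptor subunit, went from 53.75 to 112.72 FPKM, a ratio of 2.1. *Itgb2* and *Itgam*, the leukocyte integrin subunits, passed a ratio of 2 at low levels, with 0.71 and 4.96 FPKM for *Itgb2* and 0.87 and 2.92 FPKM for *Itgam*, both singled out after their values were seen. The most abundant receptor, *Itgb1*, was singled out for its level after the values were seen and went from 377.35 to 283.37 FPKM. The sum over all 13 receptors was 710.36 FPKM in *Dnmt1*-WT and 679.62 FPKM in *Dnmt1*-KO.

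TGF-β is the classical inducer of *Ctgf*, and its ligands and targets were mostly higher in *Dnmt1*-KO. Of the 10 genes examined, 9 were higher and 1 was lower. Of all genes above 0 in either library, 51.5% were higher. *Col1a1*, a chain of collagen I, went from 700.41 to 1517.78 FPKM, a ratio of 2.17. A ratio of 2 or more was found for 2 of the 10 and a ratio of 0.5 or less for 0, against 12.4% and 4.82% of all genes. The gene that was lower, *Postn*, went from 276.44 to 210.82 FPKM and was named after its value was seen. Over the 10 genes, the median on the log2 scale was 0.66. The part of TGF-β in the *Ctgf* value was not tested.

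Cell types other than SMCs also express the CCN genes, in particular endothelium, fibroblasts and mesothelium, and markers of several cell types differed between the libraries. All 8 endothelial markers were higher in *Dnmt1*-KO and 7 passed a ratio of 2, with a sum of 54.7 FPKM in *Dnmt1*-WT and 149.02 FPKM in *Dnmt1*-KO. Among all genes above 0 in either library, 51.5% were higher and 12.4% had a ratio of 2 or more. The endothelial markers ranged from a ratio of 1.76 for *Emcn* to 4.96 for *Vwf* with a median ratio of 2.52, and none was at 0. Of the 8, *Vwf* and *Cldn5* (4.95) had a ratio above that of *Ctgf*, and the other 6 had ratios of 2.99 or less. *Cldn5* was singled out after its value was seen. Of 8 fibroblast markers 6 were higher and 2 lower. The fold was passed by 2 of the 8, *Col1a1* and *Pi16* (0.77 and 5.78 FPKM), against 12.4% of all genes. The markers that were lower, named after their values were seen, were *Pdgfra* with a ratio of 0.591 and *Dpt* with 0.981, and the sums were 3317.78 and 5074.24 FPKM. Of 6 mesothelial markers 0 passed, with sums of 370.46 and 473.25 FPKM, a highest ratio of 1.96 for *Krt19* and a lowest of 0.894 for *Lrrn4*. Their part in the values of the CCN genes was not tested.

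All 6 leukocyte markers passed a ratio of 2, among them *Coro1a* (7.5 and 23.29 FPKM), *Laptm5* (8.33 and 20.24 FPKM) and *Cd52* (5.14 and 25.88 FPKM), and their sum went from 23.52 to 80.27 FPKM. Among all genes above 0 in either library, 12.4% had a ratio of 2 or more and 4.82% a ratio of 0.5 or less. Adipocyte markers had the highest median ratio of the 8 marker lists, and the ratio was 8.43 or more for the 6 markers detected in both libraries, with a sum of 109.79 FPKM in *Dnmt1*-WT and 1204.6 FPKM in *Dnmt1*-KO. *Fabp4* went from 103.72 to 874.84 FPKM and *Retn* from 0.29 to 38.62 FPKM, while *Lep* was listed at 0 in *Dnmt1*-WT. The 8 enteric neuron markers examined differed little, with 0 of 8 past the fold and sums of 480.44 and 577.97 FPKM. Other neuronal genes are not covered by this list. They ranged from a ratio of 0.798 for *Nos1* to 1.42 for *Tubb3*. Among smooth muscle markers, *Myh11*, *Smtn*, *Mylk* and *Lmod1* had a ratio of 0.5 or less, between 0.428 and 0.485. The part of these cell types in the values of the 10 genes was not tested.

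**Figure D5:**
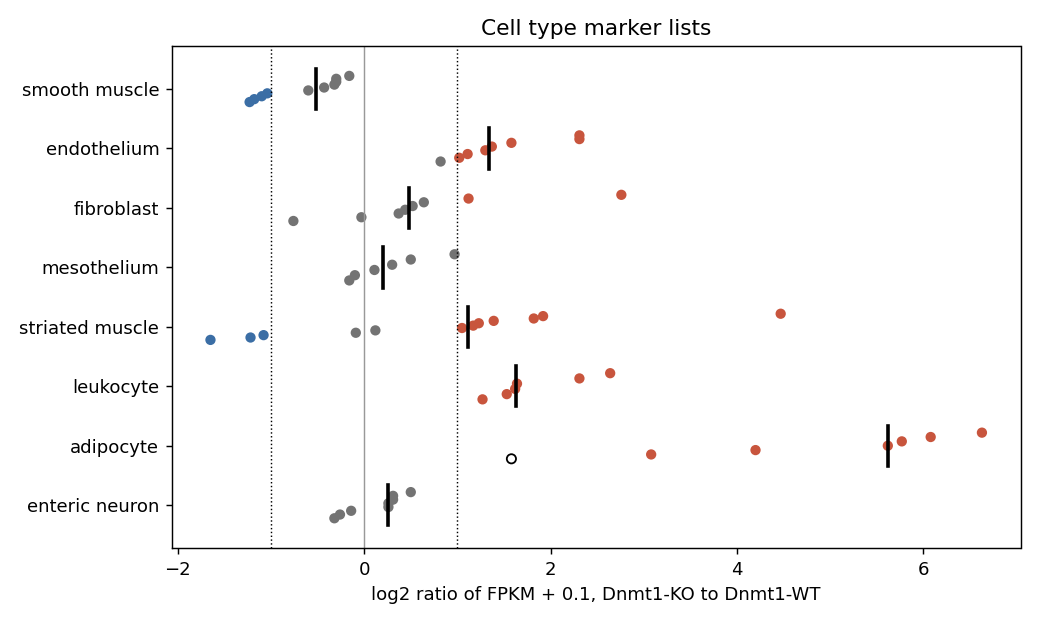
Log2 ratio of FPKM + 0.1 (*Dnmt1*-KO to *Dnmt1*-WT) of each marker gene of 8 cell types, drawn as for the pathway lists. Smooth muscle markers lie below 0, and endothelial, leukocyte and adipocyte markers lie above 0.

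The table also gives the number of transcript variants found per gene and library. For 8 of the 10 genes this number was the same in both, from 1 each for *Ctgf*, *Nov* and *Wisp2* to 4 for *Yap1*. *Wwtr1* had 1 variant in *Dnmt1*-WT and 2 in *Dnmt1*-KO, and *Ankrd1* had 0 and 1. Over all genes above 0 in both libraries, 73.9% had equal numbers. The variants are not named in the table, so it is unknown whether the same ones were found.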

How the data were processed

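mRNA of the jejunal tunica muscularis at P15 was measured in 1 *Dnmt1*-WT and 1 *Dnmt1*-KO library. Libraries were made with the TruSeq RNA kit, and the submitters' processing notes name TopHat 1.4.1, Cufflinks 2.0.2 and mm10 (GRCm38). The authors deposited FPKM per gene symbol, scaled to transcript length and mapped fragments, with the number of transcript variants per library as another kind of value. The authors' fold changes were not used. The table holds no read counts, and read totals stated elsewhere by the study were not used here.

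FPKM were used without rescaling, and summed to 429698 in *Dnmt1*-WT and 460845 in *Dnmt1*-KO. Log2 ratios were taken of FPKM + 0.1, and a ratio of 2 or more, or of 0.5 or less, was counted. With 1 library per genotype there was no test. The genes and gene lists were chosen with earlier results of these data known. Named genes were the 10 members, *Wisp3*, *Dnmt1*, list genes past the fold at 5 FPKM or more (or the highest and lowest ratio where 0 or over 4 passed), and the 3 genes nearest to *Ctgf*. Some list genes that meet this rule are not reported here. Positions came from GENCODE M21, upstream sequence from RefSeq. Of 18159 symbols, 17945 were matched. Counting past a fold was tested on simulated data. Transcripts were compared with BLAST 2.17.0, tables were handled in pandas 2.3.3 and numpy 2.4.6 under Python 3.11.15, and plots were drawn with matplotlib 3.10.9. Alternatives were the scaling, the pseudocount, filters, the fold, and centring on transcript length or GC content.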

Additional observations from a re-analysis of the deposited data

How the results depend on the processing

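Direction was the same for *Ctgf*, *Cyr61*, *Nov*, *Wisp1*, *Wisp2*, *Amotl2*, *Yap1*, *Wwtr1* and *Tead1* under every scaling, pseudocount and centring in which they had a value. The log2 ratio ranged from 1.82 to 1.96 for *Ctgf*, from 2.21 to 2.34 for *Cyr61*, from 2.17 to 3.25 for *Nov*, from 1.4 to 4.53 for *Wisp2*, from 0.11 to 0.38 for *Wisp1*, from 0.37 to 0.64 for *Amotl2*, from -0.45 to -0.18 for *Yap1*, from -0.81 to -0.49 for *Wwtr1* and from -0.7 to -0.36 for *Tead1*. The count of genes with a ratio of 2 or more was 5 under most alternatives, 4 without a pseudocount or at 5 FPKM or more in at least 1 library, and 2 at 1 FPKM or more in both libraries, a filter that removes *Nov*, *Wisp2* and *Ankrd1*. At a fold of 1.5, 2 genes, *Wwtr1* and *Tead1*, were past it downward. The median log2 ratio was 0.54 without a pseudocount, at 5 FPKM or more in at least 1 library and without *Ankrd1* (an alternative chosen after seeing the data), and 0.21 at 1 FPKM or more in both, since each of these leaves out genes with high ratios. Of 1302 recomputed values other than the counts and the median of the 10 genes, which include the log2 ratios above and the values of the gene lists, 62 moved by more than 1.5 times or, for a count of 0, to another count. No paired analysis was possible because each genotype has 1 library. For a given transcript length, genes under 1 FPKM rest on the fewest fragments.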

Other observations

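The immediate early genes examined were divided in direction. *Cyr61* belongs to this class, which responds within minutes to serum or tissue handling. Of 16 such genes, 10 were higher and 6 lower in *Dnmt1*-KO, 3 had a ratio of 2 or more, 0 had a ratio of 0.5 or less, and the median log2 ratio was 0.14. Over all genes above 0 in either library, 51.5% were higher. A ratio of 2 or more was found for 12.4% of them and a ratio of 0.5 or less for 4.82%. *Atf3*, a stress-responsive repressor, went from 1.44 to 8.89 FPKM, a ratio of 5.84, and *Btg2*, an antiproliferative gene, from 17.51 to 44.19 FPKM, a ratio of 2.52. The remaining gene past the fold, *Egr2*, was at 0.05 and 0.48 FPKM, and *Fosl1* was listed at 0 in *Dnmt1*-WT. *Fos*, a subunit of AP-1, was at 31.84 FPKM in *Dnmt1*-WT and 16.21 FPKM in *Dnmt1*-KO. *Egr2*, *Fosl1* and *Fos* were singled out after their values were seen.

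SRF, which binds CArG boxes of contractile genes, and the coactivators that bind SRF were also read beside the CCN genes. *Srf* went from 94.57 to 55.15 FPKM and *Mkl2* (*Mrtfb*) from 3.5 to 5.1 FPKM. *Myocd* went from 29.06 to 18.18 FPKM and *Mkl1* from 19.01 to 23.01 FPKM, both named after their values were seen. Of the 4 genes, 2 were higher and 2 lower, 0 passed a ratio of 2 in either direction, and the median log2 ratio was -0.2. Over all genes above 0 in either library, 12.4% passed it upward and 4.82% downward.

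The 3 genes closest to *Ctgf* in the plane of both libraries' log2(FPKM + 0.1) were *Plac8* (33.98 and 122.9 FPKM), the macrophage complement gene *C1qa* (31.57 and 125.26 FPKM) and the neuropeptide gene *Cartpt* (37.83 and 144.29 FPKM), at distances of 0.0777, 0.127 and 0.211. With 2 libraries, this likeness rests on 2 points per gene.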
